A study of Mus musculus with 4 samples.

Results

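The 38 genes described here code for the enzymes and carriers that take glucose through glycolysis to pyruvate and lactate and on through the tricarboxylic acid (TCA) cycle. They were chosen by symbol from the 32245 gene symbols of the expression table: 14 glycolytic enzymes, 2 glucose transporters, 3 lactate genes, 5 genes of pyruvate entry into mitochondria and 14 TCA cycle enzymes. The last list takes in Mdh1, the cytosolic malate dehydrogenase of the malate-aspartate shuttle, which is not itself in the mitochondrial cycle. All 38 had UMIs (unique molecular identifiers, each marking 1 captured transcript) in each of 4 coronal brain sections through the dorsal hippocampus, 1 section per mouse, profiled with 10x Genomics Visium, in which spots on a slide capture polyadenylated RNA from the tissue above them. The 4 mice were male ArcCreERT2::eYFPflx animals on a C57BL/6 background, 3 to 4 months old, whose Arc promoter controls a Cre enzyme that tamoxifen activates, so that cells expressing Arc around the injection switch on eYFP. The 2 trained mice learned active place avoidance (APA) in a rotating arena with a shock zone, and the 2 untrained mice had the same sessions with the shock off. Every mouse received 4-hydroxytamoxifen under brief isoflurane before the retention test, and tissue was taken 3 days after that test, so neither the drug, the anesthetic nor the transgene separates the groups.

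Glycolysis splits glucose into pyruvate in the cytosol. Pyruvate is either reduced to lactate by lactate dehydrogenase or carried into mitochondria, where the pyruvate dehydrogenase complex feeds it into the TCA cycle, the source of most reducing power for respiration. In brain, astrocytes, oligodendrocytes and the vessel wall express transporters and isoenzymes of this route that differ from those of neurons, and lactate is exchanged between these cells.

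Depth was 7119995, 10330015, 3560294 and 6581748 UMIs over 2865, 3055, 2359 and 2661 spots in trained 1, trained 2, untrained 1 and untrained 2, the order used for all values below. The 38 genes took 1.63, 1.78, 1.55 and 1.60% of these UMIs. Spots were assigned to brain regions by the leading list among 13 lists of region marker genes, none of which holds any of the 38 genes, and 12 regions had at least 10 spots in every section. Untrained 1 was the shallowest section and had a patchy cortex. It held 8 spots of layer 5 cortex, which was therefore left out. UMIs were summed per region and section, and a level is given in CPM, UMIs per 1000000 UMIs of that sum. The sums ranged from 39842 UMIs (medial habenula, untrained 1) to 2009158 (thalamus, trained 2). A spot covers several cells, so a lower level of a transcript in a region cannot be told apart from fewer cells that express it.

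**Figure D1:**
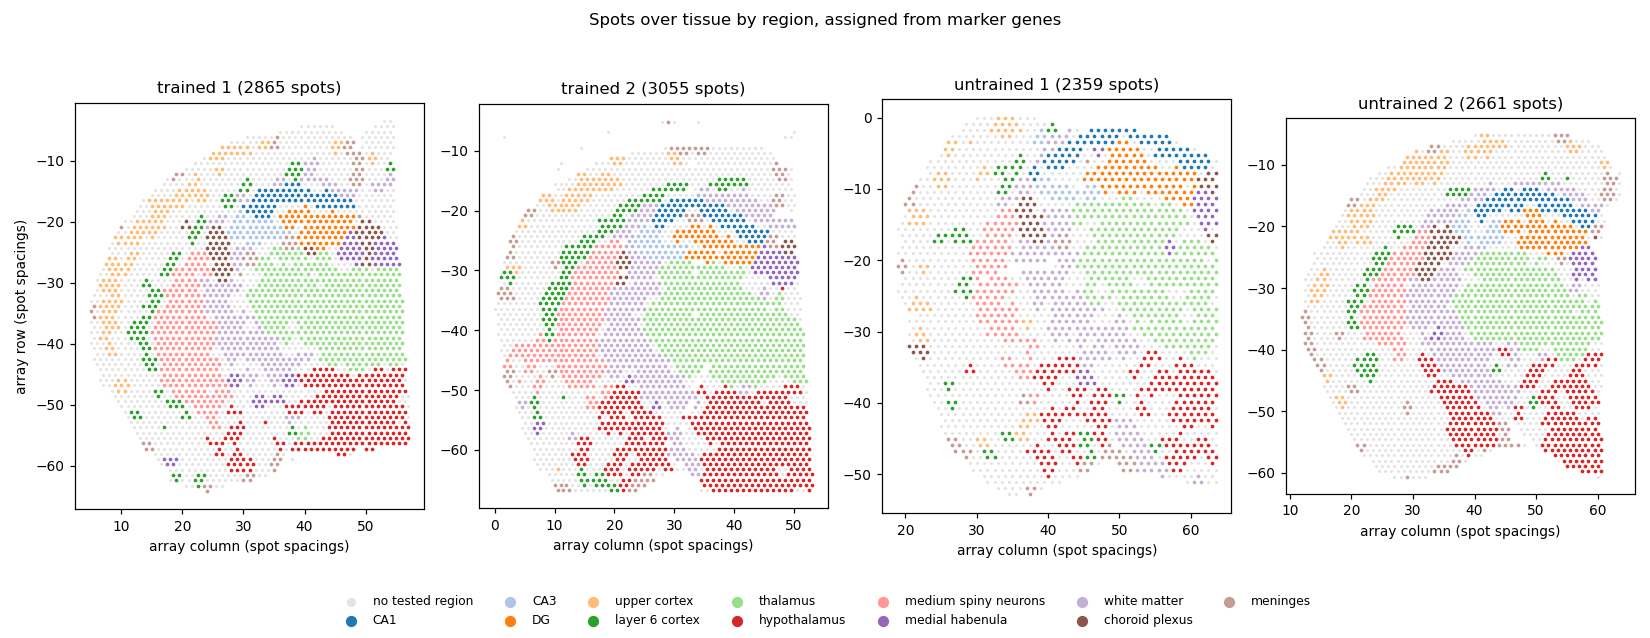
Position of every spot on the array of each section, in spot spacings, colored by the region its marker genes gave. Spots in gray were in none of the 12 regions compared; CA1, CA3 and the dentate gyrus (DG) form the hippocampal layers above the thalamus in all 4 sections.

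Spots were assigned to regions by these marker lists, so that a list is high in its own region follows from the assignment. The 9 myelin genes of the white matter list summed to 25885 ± 3078 CPM in white matter spots (SD, n = 4) against 2666 ± 532 in CA1. The white matter spots also had the highest interneuron list of the 12 regions, 2643 ± 722 CPM, and a pan-neuronal list of 3109 ± 150.2 CPM, so they are not fiber tracts alone. The choroid plexus spots were mixed too, and trained 2 had only 19 of them. There the myelin list stood at 5698, 15651, 6489 and 9134 CPM. The medium spiny neuron and meninges lists stood at 1112 ± 314 and 673 ± 353 CPM, against 1829 ± 457 for the choroid plexus list. Levels given for choroid plexus are those of such spots. The 6 pan-neuronal markers were highest in CA3 (7831 ± 358 CPM) and lowest in choroid plexus (2308 ± 626 CPM). The 12 astrocyte markers were lowest in CA3 (2441 ± 334 CPM) and CA1 (2455 ± 338 CPM) and highest in the meninges spots (5213 ± 567 CPM), which take in the cortical surface.

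The first question was where in the section each gene lies. Each region was compared with the equal-weight mean of the other 11 by edgeR's quasi-likelihood test on 48 sums with the section as a block, over 7266 genes. Of the 38 genes, 36 passed an adjusted p of 0.05 in at least 1 region, with 112 calls in all, 67 higher and 45 lower. Fh1 and Mdh2, which make malate and oxidize it, passed in none. CA3 and the thalamus had the most higher calls of the 12 regions. In CA3, 17 genes were higher and 3 lower. Of all genes tested 16.4% were called there, 10.3% higher and 6.04% lower, and the median log2 difference of the 38 genes was 0.25 against -0.02 for all genes. In the thalamus 18 were higher and 3 lower (36.7% of all genes called, 18.9% higher and 17.8% lower; median 0.20 against -0.02). In sums thinned to the smallest total, 5 of 29 members were called in CA3 and 3 of 29 in the thalamus, below the shares of all genes called (24.7% and 19.0%), with medians of 0.14 against -0.02 and 0.22 against -0.02.

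The DG and the choroid plexus ran the other way. In the DG 1 gene was higher and 12 were lower (18.3% of all genes called, 10.7% higher and 7.61% lower), with a median log2 difference of -0.23 against 0.0019 for all genes. In the choroid plexus 4 were higher and 8 lower (17.3% of all genes, 10.2% higher and 7.03% lower; median -0.19 against -0.02). In sums thinned to the smallest total, 0 of 29 members were called in the DG with edgeR (15.4% of all genes; 4 members at an unadjusted p under 0.05) and 2 of 29 in choroid plexus (23.0%), with medians of -0.20 and -0.05 against -0.0035 and 0.01 for all genes. White matter was mixed, with 8 higher and 4 lower (29.7% of all genes, 16.8% and 12.9%). The other regions had fewer calls, and the shares of all genes called, called higher and called lower follow in brackets. There were 2 higher and 4 lower in CA1 (14.4%, 9.33% and 5.11%), 4 and 3 in upper cortex (20.1%, 12.1% and 7.95%), and 5 and 3 in layer 6 cortex (15.2%, 10.0% and 5.19%). There were 3 and 3 in the hypothalamus (31.5%, 16.4% and 15.2%), 2 and 1 in the medium spiny neuron region (19.2%, 11.3% and 7.82%), 2 and 1 in the medial habenula (10.1%, 5.04% and 5.05%), and 1 and 0 in the meninges (3.19%, 2.96% and 0.234%). In the hypothalamus, medium spiny neuron region, upper cortex, medial habenula and meninges the share of the 38 genes called did not exceed that of all genes, and in CA1 and white matter it was close to it.

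Of the 112 calls, 57 held without each section in turn, and 55 were lost without at least 1. The number of calls fell by more than 1.5 times without trained 1 in CA1 (3), DG (7), choroid plexus (6), upper cortex (3), medial habenula (1) and the medium spiny neuron region (1). It did so without untrained 2 in DG (6), choroid plexus (7), upper cortex (4) and the medium spiny neuron region (1), and without trained 2 in layer 6 cortex (5) and medial habenula (1). In the meninges 3 genes were called without trained 1 and 0 without untrained 2. In CA3 the count stayed between 14 and 19, in the thalamus between 17 and 20 and in white matter between 9 and 12. The genes described below held without each section unless said otherwise.

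**Figure D2:**
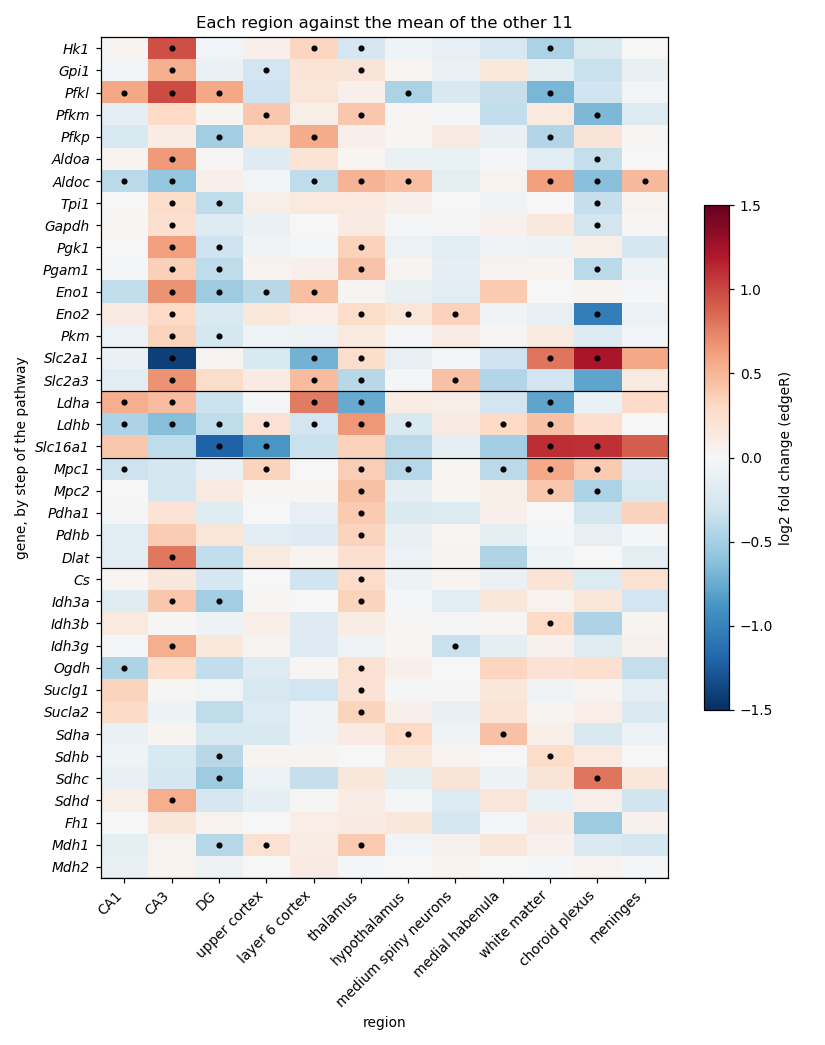
Log2 fold change of each of the 38 genes (rows, in pathway order, with lines between the 5 groups) in each region (columns) against the mean of the other 11 regions, from edgeR on the sums of 4 sections. Dots mark an adjusted p under 0.05; the CA3 and thalamus columns hold most of the higher calls, and both Ldha with Ldhb and Slc2a1 with Slc2a3 show opposite colors in CA3, layer 6 cortex, thalamus and white matter.

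The lactate genes varied between regions, and the dehydrogenase subunits did so in opposite directions. Ldha and Ldhb code for the A and B subunits of lactate dehydrogenase, and Slc16a1 for the monocarboxylate transporter MCT1, which moves lactate across the plasma membrane. The promoters of Ldha and Ldhb are shown because their levels had opposite regional patterns. The windows run from 250 bases before to 50 after the RefSeq transcription start (GRCm38.p6), 5′ to 3′ on the strand of the gene. Capitals mark ACGTG, a form of the core of the element bound by hypoxia-inducible factors, or its reverse complement CACGT. The form GCGTG was not searched and is not marked. Where the 2 overlap they form CACGTG, which is also an E-box. The Ldha window is chr7:46845554-46845853 (+ strand) and the Ldhb window chr6:142507908-142508207 (- strand).
Ldha: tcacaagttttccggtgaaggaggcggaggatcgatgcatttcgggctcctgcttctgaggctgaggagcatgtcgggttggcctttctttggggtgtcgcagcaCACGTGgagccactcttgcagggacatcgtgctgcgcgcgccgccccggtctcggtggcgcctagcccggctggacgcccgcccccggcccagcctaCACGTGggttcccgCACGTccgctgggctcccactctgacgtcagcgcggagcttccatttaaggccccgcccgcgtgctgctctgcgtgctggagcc
Ldhb: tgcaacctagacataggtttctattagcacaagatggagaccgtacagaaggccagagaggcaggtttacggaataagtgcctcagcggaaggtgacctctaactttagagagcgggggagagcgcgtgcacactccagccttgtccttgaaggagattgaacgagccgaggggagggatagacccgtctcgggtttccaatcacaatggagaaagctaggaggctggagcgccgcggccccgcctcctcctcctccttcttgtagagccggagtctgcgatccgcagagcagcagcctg

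The Ldha window held ACGTG 5 times at 3 places, counting both strands, and the Ldhb window did not hold it. The unsearched form GCGTG occurs in both windows, so Ldhb is not shown to lack the element. Over the members, 13 of the 35 with a RefSeq promoter had at least 1 match (37.1%), against 5315 of 27025 promoters of all genes (19.7%). Among them were 5 of 14 glycolytic enzymes (Pfkm, Aldoc, Gapdh, Pgk1 and Pgam1), 4 of 12 TCA cycle enzymes (Idh3g, Ogdh, Sdha and Mdh1), Slc2a1, Slc16a1 and Pdhb. These are letter matches only. Idh3a, Sdhc and Slc2a3 had no entry.

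Ldha was highest in layer 6 cortex and in the CA1 and CA3 pyramidal layers, and lowest in white matter and thalamus. It stood at 479, 606, 382 and 518 CPM in layer 6 cortex and at 464, 399, 453 and 448 CPM in CA1. In the thalamus it stood at 198, 195, 177 and 196 CPM, and in white matter at 162, 179, 158 and 190.4 CPM. Each of the 4 sections was thus lower in thalamus and white matter than any section was in layer 6 cortex or CA1. Against the other regions the log2 difference was 0.77 ± 0.09 (SE; edgeR, adjusted p = 1.38e-11) in layer 6 cortex, 0.55 ± 0.11 (adjusted p = 5.75e-05) in CA1 and 0.46 ± 0.12 (adjusted p = 0.00292) in CA3. It was -0.75 ± 0.09 (SE; edgeR, adjusted p = 2.84e-12) in thalamus and -0.79 ± 0.12 (adjusted p = 1.22e-08) in white matter.

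Ldhb ran close to the reverse of this. It was highest in thalamus, at 1112, 1403, 1113 and 1191 CPM, and lowest in CA3, at 464, 667, 658 and 399.6 CPM. These sets of sections do not overlap. The log2 difference was 0.65 ± 0.07 (SE; edgeR, adjusted p = 1.77e-14) in thalamus, 0.44 ± 0.08 (adjusted p = 4.37e-06) in white matter, -0.47 ± 0.10 (adjusted p = 0.000154) in CA1 and -0.64 ± 0.11 (adjusted p = 2.18e-06) in CA3. Its lower level in DG, -0.39 ± 0.10, was lost without trained 1 (adjusted p = 0.133) with edgeR. Calls in 4 further regions were lost without 1 or more sections.

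As a share of the UMIs of both subunits, Ldha made up 44.2% ± 7.77 in CA1 (SD, n = 4), 43.7% ± 8.35 in CA3 and 42.0% ± 3.48 in layer 6 cortex, against 13.8% ± 1.22 in thalamus and 15.6% ± 2.41 in white matter. No section of the first 3 regions came below 34.8%, and no section of the last pair above 17.8%. The share was similar in all thalamic sections (12.2 to 15.1%) and scattered most in choroid plexus (14.9 to 44.0%), where a section had as few as 47 UMIs of the pair. The efficiency of capture can differ between genes, so these shares compare regions and are not ratios of molecules.

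Slc16a1 was highest in white matter, at 92.5, 58.2, 90.2 and 56.2 CPM, and stood at 37.9, 35.9, 35.1 and 35.6 CPM over whole sections. Its log2 difference in white matter was 1.11 ± 0.20 (SE; edgeR, adjusted p = 3.2e-06). In the choroid plexus it was 1.09 ± 0.37 (adjusted p = 0.0266), a call lost without trained 1 (adjusted p = 0.0680) and untrained 2 (adjusted p = 0.252). In the DG and upper cortex it was lower, at -1.21 ± 0.39 and -0.87 ± 0.29, on 1 to 12 UMIs per section, and both calls were lost without 2 of the sections. MCT1 is known from oligodendrocytes and the vessel wall. Over the 48 region sums, Slc16a1 correlated with the summed myelin markers at r = 0.37 and with the endothelial list at 0.28, after each section was centered.

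The glucose transporters also differed in opposite directions. Slc2a1 codes for GLUT1, the transporter of the blood-brain barrier and of glia, and Slc2a3 for GLUT3, the high-affinity transporter of neurons. Slc2a1 was highest in choroid plexus, at 139.8, 316, 98.3 and 165 CPM, and lowest in CA3, at 47.0, 48.5, 0 and 34.7 CPM. Untrained 1 had 0 UMIs in CA3, which at its depth allows up to 45.9 CPM (3 counts). The log2 difference of Slc2a1 was 1.22 ± 0.22 (SE; edgeR, adjusted p = 7.48e-06) in choroid plexus, 0.80 ± 0.13 (adjusted p = 2.04e-07) in white matter, -0.71 ± 0.17 (adjusted p = 0.00085) in layer 6 cortex and -1.40 ± 0.27 (adjusted p = 2.37e-05) in CA3.

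Slc2a3 was highest in CA3, at 123, 141, 138 and 130.3 CPM, the sections lying close together. Its log2 difference there was 0.68 ± 0.18 (SE; edgeR, adjusted p = 0.00408), a call lost without trained 2 (adjusted p = 0.103). In the thalamus Slc2a3 stood at 62.2, 64.2, 87.4 and 63.0 CPM, -0.42 ± 0.11 (adjusted p = 0.00184) against the other regions, lost without trained 2 (adjusted p = 0.0627). Slc2a1 made up 18.5% ± 12.7 of the UMIs of the pair in CA3 (SD, n = 4), 32.3% ± 8.83 in layer 6 cortex and 69.2% ± 4.38 in white matter. The CA3 sections reached 27.6% at most and the white matter sections began at 64.6%, on as few as 9 and 24 UMIs of the pair. The endothelial markers, by comparison, summed to 163 ± 43.8 CPM in CA3, 315 ± 27.8 in white matter and 364 ± 64.3 in meninges, and the astrocyte markers to 2441 ± 334, 3697 ± 383 and 5213 ± 567 CPM. Their part in the level of Slc2a1 was not tested.

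**Figure D3:**
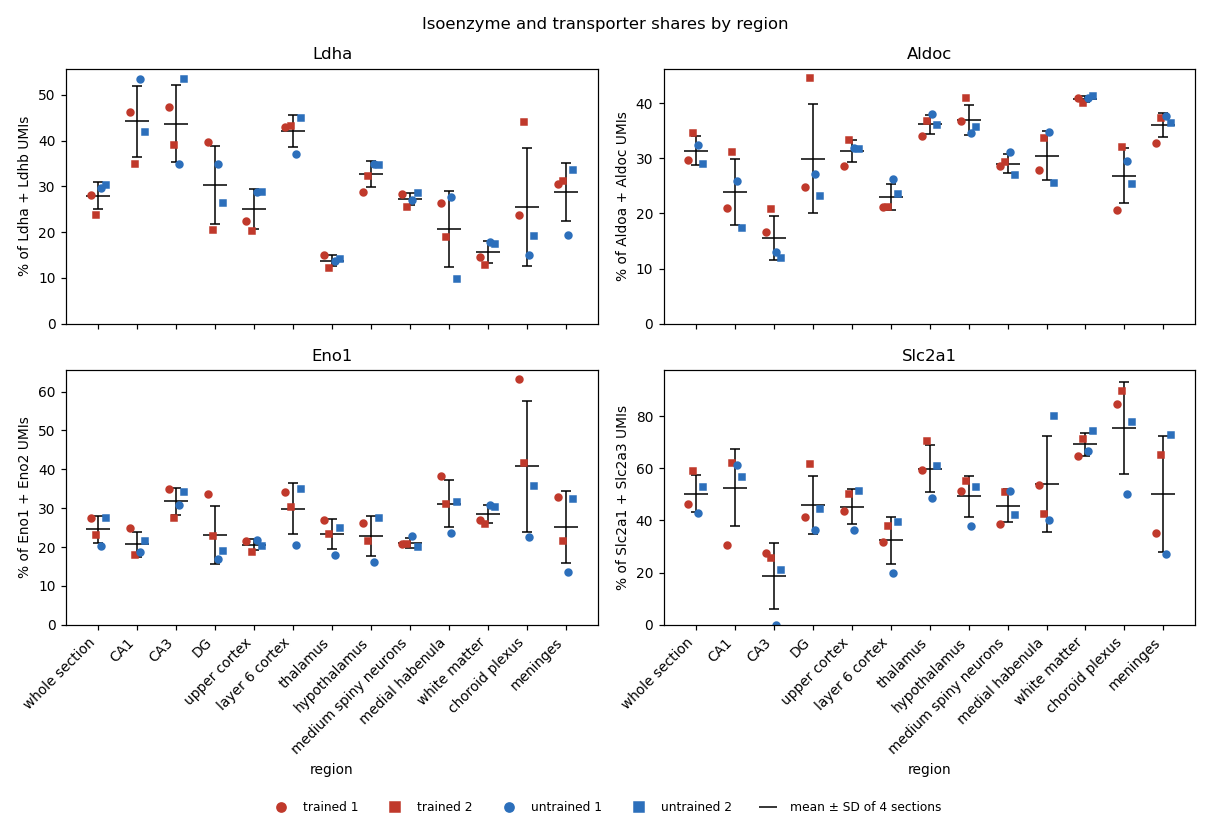
Share of the UMIs of an isoenzyme or transporter pair taken by Ldha, Aldoc, Eno1 or Slc2a1 in each region (vertical axis, percent; trained sections in red, untrained in blue, bars mean ± SD of 4 sections). Ldha is high and Aldoc and Slc2a1 are low in CA3 and layer 6 cortex, and the order turns in thalamus and white matter.

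Among the 14 glycolytic enzymes, 11 were higher in CA3, 1 was lower and the median log2 difference was 0.34. The list summed to 12814 ± 720.3 CPM in CA3 (SD, n = 4) and 7013 ± 485 in choroid plexus, where 7 were lower and 0 higher. Hk1 and Pfkl had the highest differences of the 14 in CA3. Hk1, the hexokinase that traps glucose in the cell, stood at 387, 319, 291 and 382 CPM in CA3 and at 153, 116, 143 and 125 CPM in white matter. Every CA3 section exceeded every white matter section. The log2 difference in CA3 was 0.96 ± 0.12 (SE; edgeR, adjusted p = 2.76e-10). In white matter it was -0.47 ± 0.12 (adjusted p = 0.000833), lost without trained 2 (adjusted p = 0.0895).

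The 3 phosphofructokinases, which catalyze the main regulated step, followed separate maps. Pfkl, the liver-type form, was higher in all 3 hippocampal layers, at 223, 243, 229 and 243 CPM in CA3, 177, 147, 203 and 193 CPM in DG and 182, 197, 188 and 158 CPM in CA1. In white matter it stood at 41.6, 86.2, 113 and 65.6 CPM, below every hippocampal section. The log2 difference was 0.97 ± 0.15 (SE; edgeR, adjusted p = 4.9e-08) in CA3, 0.59 ± 0.14 (adjusted p = 0.00106) in CA1, 0.58 ± 0.14 (adjusted p = 0.00123) in DG, -0.48 ± 0.10 (adjusted p = 8.54e-05) in hypothalamus and -0.69 ± 0.14 (adjusted p = 3.21e-05) in white matter. Pfkl was the only 1 of the 38 genes to be called higher in DG. Its share of phosphofructokinase UMIs was 30.3% ± 3.29 in CA1, 28.9% ± 2.05 in CA3 and 29.4% ± 3.21 in DG (SD, n = 4), against 15.1% ± 1.41 in upper cortex and 15.4% ± 1.94 in hypothalamus. The lowest hippocampal section stood at 24.6% and the highest of the latter pair at 18.1%.

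Pfkm, the muscle-type form, took 50.2% ± 1.79 of the set over whole sections and was higher in thalamus, 0.40 ± 0.07 (SE; edgeR, adjusted p = 2.07e-06), and upper cortex, 0.40 ± 0.09 (adjusted p = 0.000355). The thalamic difference was -0.10 in sums thinned to the smallest total. Pfkp, the platelet-type form, was highest in layer 6 cortex at 271, 306, 342 and 197 CPM, with a log2 difference of 0.56 ± 0.10 (SE; edgeR, adjusted p = 1.47e-05), and lower in white matter, -0.45 ± 0.12 (adjusted p = 0.00242). Untrained 2 was low in layer 6 cortex and the other sections were high.

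The aldolases, which split the sugar into trioses, were in opposite order in CA3. Aldoa, the form of muscle and neurons, was highest in CA3, at 2636, 2482, 3289 and 3231 CPM, and lowest in choroid plexus, at 1347, 1228, 1318 and 1222 CPM. Aldoc, an astrocyte-enriched form, stood at 523, 651, 489.5 and 434 CPM in CA3 and at 1036, 1072, 1075 and 1068 CPM in white matter. Neither pair of regions overlaps between sections, and the SD of Aldoc over the white matter sections was only 18.0 CPM. The log2 difference of Aldoa was 0.64 ± 0.08 (SE; edgeR, adjusted p = 5.7e-11) in CA3 and -0.36 ± 0.10 (adjusted p = 0.00402) in choroid plexus.

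Aldoc was called in 8 regions. It was higher in white matter, 0.61 ± 0.09 (SE; edgeR, adjusted p = 4.04e-09), thalamus, 0.51 ± 0.08 (adjusted p = 9.21e-09), and hypothalamus, 0.45 ± 0.08 (adjusted p = 9.41e-07), and lower in CA3, -0.59 ± 0.12 (adjusted p = 7.76e-05), and choroid plexus, -0.63 ± 0.15 (adjusted p = 0.00076). Its calls in meninges, CA1 and layer 6 cortex were lost without untrained 2 (meninges, adjusted p = 0.157), trained 1 or untrained 2 (CA1) and trained 2 (layer 6 cortex). The Aldoc share of aldolase UMIs was 40.7% ± 0.490 in white matter (SD, n = 4), 37.0% ± 2.75 in hypothalamus, 36.2% ± 1.72 in thalamus, 23.9% ± 5.99 in CA1 and 15.5% ± 4.03 in CA3. White matter overlapped hypothalamus (34.6 to 40.9%) but lay above every thalamic section (34.0 to 38.1%). Aldoc was the member whose level correlated most with the astrocyte list over the 48 sums (r = 0.72), whereas Aldoa followed the neuronal list (r = 0.73). Aldoc itself is no member of the astrocyte list used.

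Of the enolases, Eno2 is the neuronal form and Eno1 the ubiquitous form. Eno2 was lowest in choroid plexus at 133, 261, 472 and 298 CPM against 614, 641, 681 and 630.1 CPM over whole sections. The difference of -1.04 ± 0.15 (SE; edgeR, adjusted p = 1e-08) was the lowest called value of any of the 14 glycolytic enzymes. It was higher in thalamus, 0.27 ± 0.07 (adjusted p = 0.000371), and the medium spiny neuron region, 0.35 ± 0.07 (adjusted p = 6.92e-05). Eno1 was higher in CA3, 0.68 ± 0.13 (SE; edgeR, adjusted p = 1.52e-05), and layer 6 cortex, 0.46 ± 0.10 (adjusted p = 0.000282). Eno1b, a near-identical intronless copy of Eno1 with 19.4 to 31.7 CPM in the 4 sections, could have taken reads from it.

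The other 6 glycolytic enzymes, Gpi1, Tpi1, Gapdh, Pgk1, Pgam1 and Pkm, were each higher in CA3. Pgk1, the first step that yields ATP, stood at 839.6, 780.2, 643 and 764 CPM in CA3, 0.61 ± 0.09 (SE; edgeR, adjusted p = 2.44e-08) against the other regions, and was higher in thalamus too, 0.34 ± 0.06 (adjusted p = 3.73e-06). Gpi1, the isomerase before phosphofructokinase, differed by 0.55 ± 0.10 (adjusted p = 5.83e-06) and Pkm, pyruvate kinase, by 0.33 ± 0.08 (adjusted p = 0.00115) in CA3. Gpi1 was lower in upper cortex, -0.29 ± 0.09 (adjusted p = 0.0121), lost without trained 2 (adjusted p = 0.0936). Pgam1, phosphoglycerate mutase, was highest in thalamus at 789, 962, 808 and 835 CPM, 0.43 ± 0.06 (SE; edgeR, adjusted p = 4.67e-09). In the DG, Pgam1 at 526, 493, 486 and 503 CPM and the triose isomerase Tpi1 at 526, 488, 616 and 628 CPM were lower, with differences of -0.38 ± 0.09 (adjusted p = 0.000754) and -0.38 ± 0.09 (adjusted p = 0.000416). The DG calls of Pgk1, -0.31 ± 0.10, and Pkm, -0.27 ± 0.08, were lost without trained 1 and without untrained 2 (edgeR adjusted p from 0.0651 to 0.338). Lower calls of Tpi1, Gapdh and Pgam1 in choroid plexus, between -0.41 and -0.28, were each lost without trained 1 (edgeR adjusted p from 0.145 to 0.172) and without 1 or more other sections. The CA3 calls of Pgam1, Tpi1, Gapdh and Eno2, between 0.24 and 0.35, were each lost without trained 1 (edgeR adjusted p from 0.0786 to 0.468), and 3 of the 4 without other sections too.

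At the entry to mitochondria, the thalamus led. The list holds Mpc1 and Mpc2, which form the mitochondrial pyruvate carrier, and Pdha1, Pdhb and Dlat, subunits of the pyruvate dehydrogenase complex. In the thalamus 4 of the 5 were higher and 0 lower, with a median log2 difference of 0.37. Mpc2 stood at 317, 452, 288 and 354 CPM and Pdha1 at 263, 264, 253 and 222 CPM. The differences were 0.44 ± 0.07 (SE; edgeR, adjusted p = 1.05e-07) for Mpc2, 0.39 ± 0.08 (adjusted p = 2.05e-05) for Pdha1 and 0.37 ± 0.07 (adjusted p = 3.13e-06) for Mpc1, the latter -0.037 in thinned sums. That of Pdhb, 0.34 ± 0.09, was lost without trained 2 (adjusted p = 0.0854) with edgeR.

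Mpc1 was highest in white matter, at 361, 543, 353 and 456 CPM, and lowest in hypothalamus, at 229, 295, 235 and 243 CPM. Every white matter section was above every hypothalamic section. The difference was 0.57 ± 0.08 (SE; edgeR, adjusted p = 7.41e-09) in white matter, 0.34 ± 0.08 (adjusted p = 0.00120) in upper cortex and -0.43 ± 0.08 (adjusted p = 1.55e-06) in hypothalamus. The carrier subunits parted in choroid plexus, where Mpc1 differed by 0.40 ± 0.14 and Mpc2 by -0.48 ± 0.17, but both calls were lost without trained 1 (edgeR adjusted p = 0.367 and 0.295) and without 1 or more other sections. Dlat was highest in CA3, at 176, 146, 168 and 148 CPM, 0.79 ± 0.18 (SE; edgeR, adjusted p = 0.000553). The other members of the complex, Pdha1 and Pdhb, had values of 0.20 ± 0.14 and 0.38 ± 0.15 in CA3 that did not pass.

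The 14 TCA cycle enzymes had 21 calls over the 12 regions, 12.5% of 168 pairs of gene and region, and the 14 glycolytic enzymes had 51, or 30.4% of 168. Over all genes tested 19.3% of such pairs were called. Over whole sections the TCA list summed to 3702 ± 282 CPM and the glycolytic list to 10248.5 ± 456 CPM. Fewer UMIs allow fewer calls and the shares were not matched for level. They do not show that TCA cycle genes vary less between regions. In the thalamus 6 TCA cycle enzymes were higher and 0 lower, with a median log2 difference of 0.15. Mdh1, the cytosolic malate dehydrogenase of the malate-aspartate shuttle, stood at 1186, 1465, 1342 and 1136 CPM in thalamus and at 714, 683, 851 and 781 CPM in DG, without overlap. Its difference was 0.39 ± 0.06 (SE; edgeR, adjusted p = 1.19e-07) in thalamus and -0.43 ± 0.08 (adjusted p = 3.58e-05) in DG. Sucla2, a subunit of succinyl-CoA synthetase, differed by 0.33 ± 0.08 (adjusted p = 0.000391), Idh3a, the catalytic subunit of NAD-linked isocitrate dehydrogenase, by 0.33 ± 0.08 (adjusted p = 0.000237), and Cs, citrate synthase, by 0.27 ± 0.08 (adjusted p = 0.00393) in thalamus. The thalamic calls of Ogdh, 0.22 ± 0.09, and Suclg1, 0.22 ± 0.09, were both lost without untrained 1 (edgeR adjusted p = 0.0525 and 0.152) and without 1 or more other sections, and Suclg1 was at -0.45 in thinned sums.

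The differences between subunits of 1 enzyme were not tested. Of the isocitrate dehydrogenase subunits, Idh3g was higher in CA3 at 229, 218, 291 and 269 CPM, 0.55 ± 0.13 (SE; edgeR, adjusted p = 0.00123). Idh3b stood at 282, 271, 382 and 243 CPM there, with a value of 0.01 ± 0.14 that did not pass, and Idh3a at 282, 283, 306 and 287 CPM, 0.40 ± 0.13 (adjusted p = 0.0211), lost without trained 1 (adjusted p = 0.149), trained 2 (adjusted p = 0.0710) and untrained 2 (adjusted p = 0.0602). Idh3a was lower in DG, -0.52 ± 0.14, lost without untrained 2 (adjusted p = 0.236). Idh3b was higher in white matter, 0.29 ± 0.10, and Idh3g lower in the medium spiny neuron region, -0.33 ± 0.10, and both calls were lost without trained 2 (edgeR adjusted p = 0.707 and 0.150) and without untrained 2 (0.0661 and 0.0811), that of Idh3g also without trained 1 (0.0844). In thinned sums Idh3b in white matter was at -0.26. Of the succinate dehydrogenase subunits, Sdha, the flavoprotein, was higher in hypothalamus at 403, 432, 388 and 370.3 CPM, 0.30 ± 0.07 (SE; edgeR, adjusted p = 0.000232). Sdhb, the iron-sulfur subunit, had 0.16 ± 0.08 in that region and did not pass. Further calls of Sdha, higher in medial habenula at 0.44 ± 0.11, and of Sdhb, higher in white matter at 0.28 ± 0.10 and lower in DG at -0.41 ± 0.13, were each lost without trained 1 and without trained 2 (edgeR adjusted p from 0.0751 to 0.146). Sdhb in white matter was at -0.0074 in thinned sums. The membrane subunit Sdhc was lower in DG, -0.54 ± 0.18, lost without trained 1 (adjusted p = 0.303) and untrained 2 (adjusted p = 0.0691), and higher in choroid plexus, 0.81 ± 0.20, yet the choroid plexus sections ranged from 55.8 to 235 CPM and the call was lost without trained 1 (adjusted p = 0.509) with edgeR. Sdhd was higher in CA3, 0.55 ± 0.17 (adjusted p = 0.0132), lost without trained 1 (adjusted p = 0.0685) and untrained 2 (adjusted p = 0.116).

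Over all 38 genes, the region of highest mean level was CA3 for 17, thalamus for 7, medial habenula for 4 and layer 6 cortex for 3. The lowest was choroid plexus for 20, and DG and white matter for 5 each. In 33 of the 38 the sections of these extremes did not overlap. Picking the highest and lowest of 12 regions favors that outcome, and 66.9% of the 7266 genes tested showed it. The fold between them ran from 1.34 for Mdh2 to 5.52 for Slc2a1. The extremes overlapped for Cs, Idh3b, Sdhc, Fh1 and Mdh2, all TCA cycle enzymes.

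The members were set against the marker lists of cell types. Over the 48 region sums, centered by section, the correlation with the summed neuronal markers was above 0 for 32 of the 38 genes (median r = 0.38), against 67.8% of all genes (median 0.15). It was above 0 for 9 with the astrocyte list (median -0.14), for 13 with the myelin list (-0.14) and for 9 with the endothelial list (-0.21), against 40.5%, 36.5% and 36.6% of all genes. Values near 0 are among the 32, such as Suclg1 (0.03) and Sucla2 (0.05). Tpi1 (r = 0.76), Aldoa (0.73), Hk1 (0.72), Eno2 (0.71) and Pfkm (0.71) followed the neuronal list most closely, and Slc2a1 ran against it (-0.59). The sums share sections and are all proportions of a total, so these values describe the map and carry no test. The part of cell makeup in the regional levels was not tested.

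Glycolysis was then set against the TCA cycle as the summed UMIs of the 14 glycolytic enzymes over those of the 14 TCA cycle enzymes. The most abundant gene of the TCA list is the cytosolic Mdh1, so the ratio is partly set by a shuttle enzyme. Over whole sections the ratio was 2.76, 2.66, 2.83 and 2.86, with a mean of 2.77 ± 0.0888 (SD, n = 4). It was highest in CA3, at 3.37, 3.08, 3.02 and 3.58 (3.26 ± 0.259), and above the value of the whole section in 4 of 4 sections. It was lowest in choroid plexus, at 2.16, 2.38, 2.61 and 2.36 (2.38 ± 0.184), and below the whole section in all 4. The CA3 and choroid plexus sections do not overlap.

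Of the other hippocampal layers, the DG stood at 2.98 ± 0.183, above the whole section in 4 of 4 sections, and CA1 at 2.81 ± 0.118, above it in 2. In the DG both lists were below the whole section, 9034 ± 479.9 CPM for glycolysis and 3033 ± 187 CPM for the TCA cycle, whereas in CA3 they were 12814 ± 720.3 CPM, above it in 4 of 4 sections, and 3936 ± 94.9 CPM, above it in 3 of 4. Layer 6 cortex, at 2.94 ± 0.139, was above the whole section in 4 of 4 and upper cortex, at 2.62 ± 0.211, in 0 of 4. The medial habenula had the highest TCA list, 4237 ± 326 CPM, and a ratio of 2.50 ± 0.226, below the whole section in 3 of 4. The meninges, at 2.99 ± 0.123, were above in 4 of 4, but with each gene weighted the same their log2 difference from the whole section fell from 0.11 to -0.0070. The thalamus, hypothalamus, medium spiny neuron region and white matter lay between 2.72 and 2.74, within the spread of whole sections. No test was made on this ratio, since it sums the members.

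**Figure D4:**
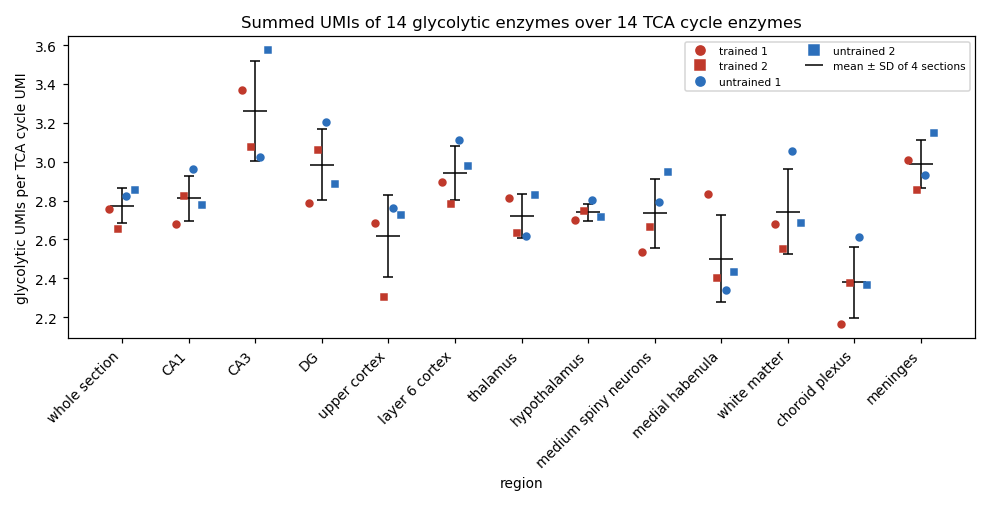
Summed UMIs of the 14 glycolytic enzymes per UMI of the 14 TCA cycle enzymes (vertical axis, not starting at 0) in whole sections and in each region; red trained, blue untrained, bars mean ± SD of 4 sections. CA3 lies highest at 3.02 to 3.58 and choroid plexus lowest at 2.16 to 2.61.

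The 65 other genes of these pathways, such as further isoenzymes, kinases of regulatory steps and shuttle carriers, gave a comparison list. Only 28 passed the filter on low counts over the 48 sums. In the thalamus 11 were higher and 6 lower (36.7% of all genes called), in white matter 7 and 2 (29.7%), in hypothalamus 5 and 3 (31.5%), in choroid plexus 3 and 3 (17.3%), and in layer 6 cortex 3 and 3 (15.2%). In DG, upper cortex and the medium spiny neuron region 2 were higher and 2 lower (18.3%, 20.1% and 19.2%), and in CA1 1 and 3 (14.4%). There were 2 and 0 in CA3 (16.4%) and medial habenula (10.1%), and 0 and 1 in meninges (3.19%). The largest value was that of Pdp1, the phosphatase that switches pyruvate dehydrogenase on, 2.54 ± 0.08 (adjusted p = 9.33e-53) in thalamus with edgeR. Pdp1 was lower in CA1, -1.21 ± 0.22 (adjusted p = 5.77e-06), and white matter, -0.79 ± 0.16 (adjusted p = 3e-05). These genes were picked for their values.

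Others of this list mark glycolytic control and glial metabolism. Pfkfb3, which makes the activator of phosphofructokinase, was higher in CA3, 1.42 ± 0.31 (adjusted p = 0.000259), and white matter, 0.82 ± 0.25 (adjusted p = 0.00820), and lower in thalamus, -0.87 ± 0.24 (adjusted p = 0.00189), with edgeR. Without trained 2 or without untrained 2 it was below the filter on low counts and could not be fitted. Bpgm, a mutase of red cells, was higher in white matter, 1.02 ± 0.14 (adjusted p = 1.05e-09), where the blood list summed to 1042 ± 448 CPM. The blood list was higher in meninges, 1945 ± 396 CPM, and choroid plexus, 1733 ± 1513 CPM, where Bpgm had -0.59 ± 0.28 and 0.19 ± 0.30 and did not pass. Pcx, the pyruvate carboxylase of astrocytes, was higher in white matter, 0.85 ± 0.16 (adjusted p = 1.2e-05), and thalamus, 0.67 ± 0.12 (adjusted p = 2.78e-06). Bsg, the chaperone of lactate transporters, was higher in choroid plexus, 1.65 ± 0.10 (adjusted p = 2.16e-26), and so was Idh2, the mitochondrial NADP-linked isocitrate dehydrogenase, 2.06 ± 0.28 (adjusted p = 2.15e-09). The glycerol phosphate dehydrogenases Gpd1, 1.22 ± 0.21 (adjusted p = 1.6e-06), and Gpd2, 1.19 ± 0.22 (adjusted p = 8.17e-06), were higher in DG.

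The second question was whether the trained and untrained mice differed 3 days after the retention test. Over whole sections, 0 of the 38 genes passed an adjusted p of 0.05 with edgeR, where 0.0145% of 13811 genes were called. DESeq2 called 0 of the 38 as well, and 2 of the 38 had an unadjusted edgeR p under 0.05, as did 7.96% of all genes. The standard errors ran from 0.11 to 0.19 on the log2 scale, with 2 mice per group. The median log2 fold change was 0.02 for the 38 genes and 0.01 for all genes, with 20 of 38 above 0. It was -0.05 for the glycolytic enzymes (6 of 14 above 0) and 0.07 for the TCA cycle enzymes (10 of 14). Each section is from a mouse of its own, so these p-values rest on 4 animals.

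The 3 genes of smallest p were Sdhd, Pkm and Slc2a3. Sdhd, a membrane subunit of succinate dehydrogenase, stood at 106, 108, 69.1 and 86.3 CPM, both trained above both untrained sections. Its log2 fold change was 0.37 ± 0.13 (SE; edgeR, unadjusted p = 0.0157, adjusted p = 0.584). Pkm stood at 970.2, 1079, 827 and 737 CPM, likewise without overlap, with 0.31 ± 0.12 (SE; edgeR, unadjusted p = 0.0307, adjusted p = 0.594). Slc2a3 stood at 86.2, 85.3, 106 and 91.5 CPM, lower in both trained sections, with -0.27 ± 0.12 (SE; edgeR, unadjusted p = 0.0503, adjusted p = 0.620). None of the 3 passed the adjusted threshold.

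By rank alone, 15 of the 38 genes were higher in both trained than in both untrained sections and 3, Aldoa, Hk1 and Slc2a3, were lower. Of all genes, 28.8% were separated upward and 12.1% downward. The 15 held 11 genes of the TCA list (Cs, Idh3a, Idh3b, Ogdh, Sucla2, Suclg1, the cytosolic Mdh1 and the 4 subunits of succinate dehydrogenase), Pkm, Pgam1, Ldhb and Slc16a1. The glycolytic to TCA ratio was 2.71 in trained and 2.84 in untrained sections. The log2 difference of -0.07 ranged from -0.097 to -0.043 when a section was left out. By region it ran from -0.14 in the medium spiny neuron region to 0.13 in the medial habenula. It was -0.031 in CA3 and -0.058 in DG, where leaving out a section changed its sign (-0.15 to 0.090 and -0.13 to 0.017). Over whole sections the myelin list stood at 4094, 6914, 4554 and 4587 CPM, the neuronal list at 4985, 4879.9, 5066 and 4882 and the astrocyte list at 2959.6, 3114, 3280.3 and 3141. Of the marker lists, 5 separated the groups. The medium spiny neuron list was higher in both trained sections, at 969.8, 998, 749 and 694 CPM, where its spots made up 8.62, 8.38, 5.34 and 4.85% of all spots. The interneuron list, at 1485, 1487, 1385 and 1292 CPM, and the medial habenula list, at 139, 115, 92.7 and 107, were also higher. The CA1 list, at 308, 256, 387 and 371 CPM, and the astrocyte list were lower. The part of depth and of these lists in the values was not tested.

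Without trained 1, 848 genes (5.96%) were called over whole sections, among them Mpc1 at 0.41 (edgeR adjusted p = 0.033), a fit that rests on trained 2 alone and takes its spread from the untrained pair. Mpc1 stood at 307, 429.5, 270.2 and 318 CPM, with trained 1 between the untrained sections. No other member was called over whole sections without any 1 section.

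**Figure D5:**
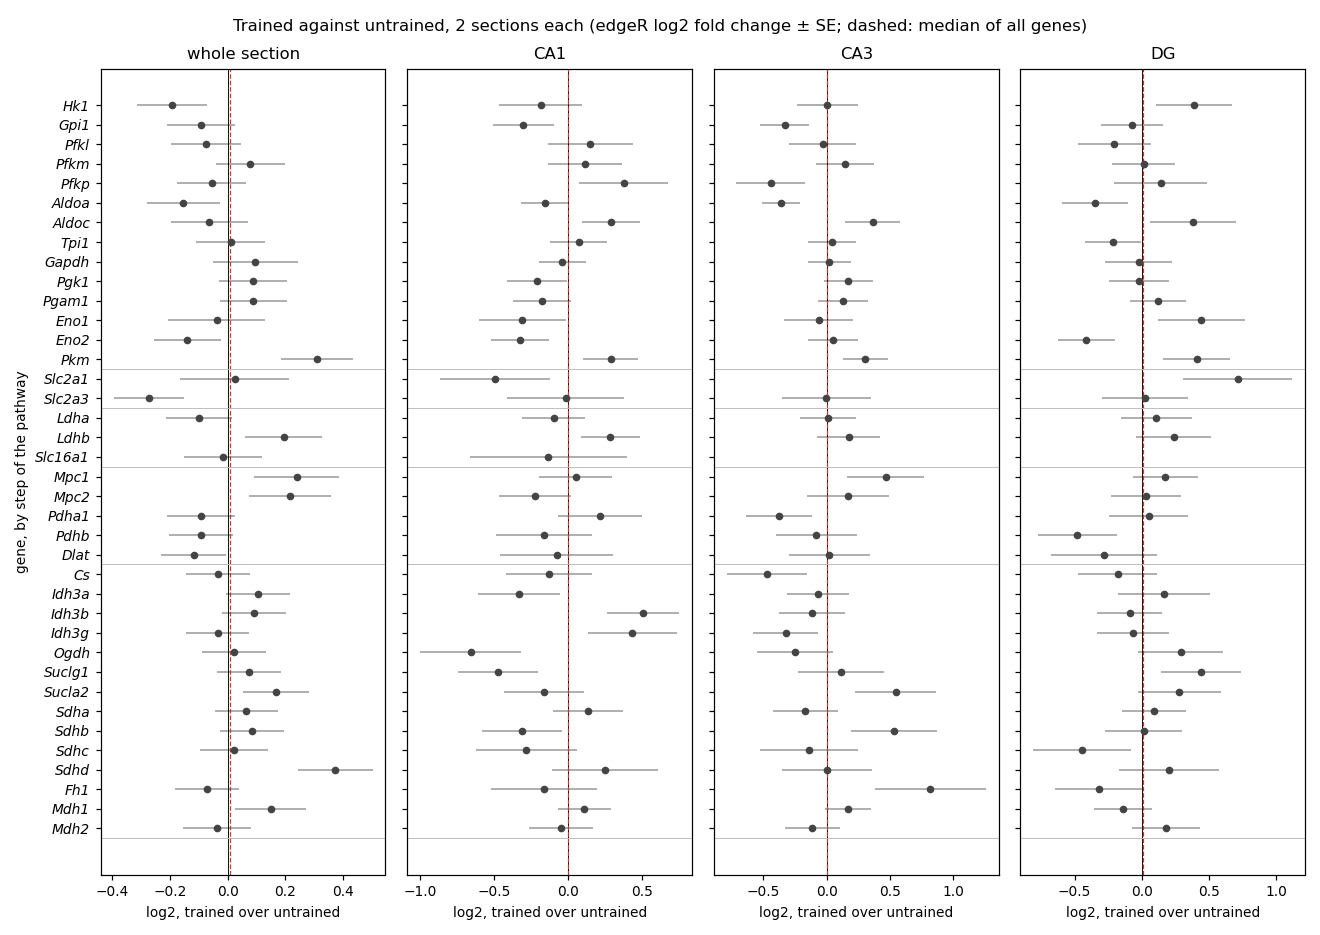
Log2 fold change, trained over untrained, with its standard error (horizontal axis; edgeR, 2 sections per group), of the 38 genes in whole sections and in the CA1, CA3 and DG layers. Dashed lines give the median of all genes tested; Slc2a1 and Slc16a1 were too low to be tested in CA3 and Slc16a1 in DG, and no point passed an adjusted p of 0.05.

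Region by region the outcome was the same. In each of the 12 regions 0 members passed with edgeR and 0 with DESeq2, of 32 to 38 members tested. Of all genes, 0.0461% were called in CA1, 0.0742% in thalamus, 0.0644% in hypothalamus, 0.0646% in the medium spiny neuron region and 0.0% in the other 8. At an unadjusted p under 0.05 there were 4 members in white matter (7.36% of all genes), 1 each in CA1 (5.46%), CA3 (5.0%), layer 6 cortex (5.96%) and choroid plexus (2.9%), and 0 elsewhere (3.51% to 6.65%). The median standard error was 0.27 in CA1, 0.26 in CA3, 0.28 in DG and 0.17 in thalamus, so the hippocampal layers resolved less than the large regions.

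In CA1, the members had a median log2 fold change of -0.11 (14 of 38 above 0) against -0.00052 for all genes. Idh3b stood at 388, 320.4, 257 and 233 CPM, higher in both trained sections, with 0.51 ± 0.24 (SE; edgeR, unadjusted p = 0.0358, adjusted p = 0.907). Ogdh, the first subunit of the 2-oxoglutarate dehydrogenase complex, stood at 70.6, 108, 137 and 149 CPM, lower in both, with -0.66 ± 0.34 (SE; edgeR, unadjusted p = 0.0529, adjusted p = 0.910). Suclg1 was next, at -0.47 ± 0.27. In this layer 5 members were separated upward and 8 downward, where 18.4% and 15.0% of all genes were. The myelin list stood at 2599, 3438, 2310 and 2317 CPM in the CA1 spots, higher in both trained sections. So were the microglia, endothelial, interneuron and upper cortex lists, and the DG list was lower in both. The neuronal and astrocyte lists overlapped between the groups. The part of these lists in the CA1 values was not tested.

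In CA3 the median was 0.01, against 0.0035 for all genes. Aldoa stood at 2636, 2482, 3289 and 3231 CPM, lower in both trained sections, with -0.36 ± 0.15 (SE; edgeR, unadjusted p = 0.0285, adjusted p = 0.887). Fh1 and Gpi1 followed, at 0.82 ± 0.44 and -0.33 ± 0.19, neither past an unadjusted p of 0.05. In CA3, 7 members were separated upward and 6 downward (18.5% and 17.4% of all genes).

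In DG the median was 0.03, against 0.01, and the smallest p were those of Eno2, -0.41 ± 0.21 (SE; edgeR, unadjusted p = 0.0713, adjusted p = 0.880), Slc2a1, 0.71 ± 0.41, and Pkm, 0.41 ± 0.25. Eno2 stood at 445, 403, 632 and 568 CPM, lower in both trained sections. In DG, 1 member was separated upward and 9 downward (13.4% and 21.0% of all genes). The value of Slc2a1 rested on trained 2 and was -0.0094 without it. The endothelial list stood at 241, 398, 178 and 173 CPM in these sections, highest in trained 2 and higher in both trained sections, and its part in the value was not tested. Aldoc stood at 590.3, 1176, 867 and 616 CPM in DG. Its fold change was 0.38 ± 0.32 and did not pass, while without trained 1 it was 0.87 (edgeR adjusted p = 0.0011) in a fit that takes its spread from the untrained pair and called 1.93% of all genes. Trained 2 was the high section, and its DG spots also had the highest astrocyte list, 3053, 5699.7, 3127 and 2819 CPM over the 4 sections, and the lowest neuronal list, 3848, 2907, 3986 and 3805 CPM. Their part in the result was not tested.

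In white matter 4 of 38 members had an unadjusted p under 0.05, near the 7.36% of all genes that did. Pfkm stood at 301, 385, 180.4 and 237 CPM, with 0.65 ± 0.21 (SE; edgeR, unadjusted p = 0.00458, adjusted p = 0.408). Mpc2 stood at 333, 409, 256 and 256 CPM and Mdh1 at 934, 1260.5, 774 and 793 CPM, with 0.51 ± 0.19 (SE; edgeR, unadjusted p = 0.0147, adjusted p = 0.556) and 0.45 ± 0.19 (SE; edgeR, unadjusted p = 0.0245, adjusted p = 0.608). In all 3 both trained sections were above both untrained sections. The median of the members was 0.17, against -0.0039 for all genes, with 26 of 38 above 0, and 16 members were separated upward and 1 downward (21.5% and 16.1% of all genes). Without trained 1 the trained group is trained 2 alone and the spread comes from the untrained pair. In that fit, which called 72 of 6794 genes (1.06%), Mdh1 was called at 0.60 (edgeR adjusted p = 0.037). The white matter spots of the groups differed in makeup, with the myelin list at 23210.5, 23239, 28307 and 28782 CPM, lower in both trained sections, and the interneuron list at 2863, 3555, 1932 and 2223, higher in both. The neuronal list was higher in both trained sections too, at 3256, 3221, 2961 and 2999.98 CPM, and the astrocyte list lower in both, at 3260.3, 3495, 4051 and 3983. Their part in the result was not tested.

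Pkm was above 0 in whole sections and in each of the 12 regions, from 0.13 in the medium spiny neuron region to 0.44 in choroid plexus, and Mpc1 likewise, from 0.0084 to 0.51. These regions come from the same 4 sections and so do not count as separate evidence. Of the 31 members tested in all 13 units 2 were above 0 and 0 below 0 throughout, against 4.2% and 2.1% of the 1333 genes tested in all. Sdhd was above 0 in all 12 units where it was tested. Pfkm and Mdh1 were above 0 in 12 of 13, and Eno2 and Aldoa below 0 in 12 of 13. Of the other 31 genes, none had 1 sign throughout.

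Whether the effect of training differed between regions was tested as an interaction, the effect in 1 region less the mean effect in the other 11, over 8390 genes. With edgeR 0 of the 38 genes passed in any region and with DESeq2 0. Of all genes 0.107% were called in hypothalamus, 0.0358% in choroid plexus and medial habenula, 0.0119% in DG, layer 6 cortex, thalamus and white matter, and 0.0% in the other 5. At an unadjusted p under 0.05 there were 4 members in choroid plexus (5.47% of all genes), 3 each in CA1 (4.29%), layer 6 cortex (4.87%) and the medium spiny neuron region (5.1%), and 0 to 2 in the others (3.75% to 5.72%). Without trained 1, Aldoc was called in DG at 0.78 and in layer 6 cortex at -0.77 (edgeR adjusted p = 0.021 and 0.035), against 0.40 ± 0.18 and -0.54 ± 0.18 with all sections. That fit has trained 2 as its only trained section, and 0.473% and 0.168% of all genes were called in it.

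Of the 65 other genes of the pathways, 55 were tested over whole sections. With edgeR 0 were called and 5 had an unadjusted p under 0.05 (7.96% of all genes), and with DESeq2 0 were called. Their median log2 fold change was 0.07, with 37 above 0. In CA1, CA3 and DG 19, 14 and 19 of them could be tested, with 0 called by either tool and 0, 0 and 2 at an unadjusted edgeR p under 0.05 (5.46%, 5.0% and 5.02% of all genes).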

How the data were processed

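Spatial transcriptomes of 4 sections (2 trained, 2 untrained mice) were analysed from UMI counts per gene and spot that the authors deposited as whole numbers, without normalization. The matrix headers name Space Ranger 1.2.2, the study's methods a later release with an mm10 reference, and the submitters' processing notes list Cell Ranger 8, STAR and a newer mouse build. Which of these made the counts is not given in the sources used here. The files hold only spots under tissue. Sections share 1330 spot barcodes because slides carry the same barcode set, so a shared barcode is not a shared cell.

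For each spot the UMIs of the neighboring spots were added at a weight of 0.5, and the sums were then log-normalized. The genes of 13 marker lists (105 genes) were scaled and averaged per list. A spot took the leading list if its score was at least 0.5, led by at least 0.2 and was shared by at least 2 neighbors, and CA1, CA3 and DG were kept to the largest connected patch. Of 10940 spots, 3680 were in no region. No spot was called a cell type. Counts were summed per region and section, so the section of 1 mouse was the replicate. Sums were tested in edgeR 4.0.16 (R 4.3.3) with filterByExpr, TMM scaling and the quasi-likelihood test, with Benjamini-Hochberg adjustment over all genes tested and a threshold of 0.05. Differences are fitted log2 values ± SE. The study's rank-sum test over spots was not used, since spots of 1 section are not replicates. Levels are given per 1000000 UMIs of the sum, and the 2 rows named Aldoa were added, of which 1 held 0 UMIs.

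Alternatives were DESeq2 1.42.0, no filter on low counts, a lead of at least 0.4 between lists, all sums thinned to the smallest total, abundant transcripts left out, no block of section, the replicate number as a block and each section left out. The scripts were tested on simulated data. Genes given with values are the isoenzyme and transporter sets, the Idh3 and Sdh subunits, per region the called members of the 5 highest and 5 lowest differences, chosen among them for the text, and the 3 members of smallest p per training comparison. Members called without 1 section and other pathway genes were named after their values were seen. The 38 genes, the marker lists and the 65 other pathway genes were chosen with earlier results of these data known. Promoters are RefSeq windows of GRCm38.p6, matched by symbol for 35 of 38 genes, with the first listed start of each gene.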

Additional observations from a re-analysis of the deposited data

How the results depend on the processing

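Of the 112 calls between regions, DESeq2 kept 106, leaving out abundant transcripts 112, a stricter lead between marker lists 104, no filter on low counts 94 and no block of section 86. Without trained 1, 73 held, without trained 2, 80, without untrained 1, 103, and without untrained 2, 81. No call changed direction under these. Thinning all sums to the smallest total, which left 1380 genes to test, kept 22 of the 89 calls it could fit and reversed Idh3b (-0.26) and Sdhb (-0.0074) in white matter and Mpc1 (-0.037), Pfkm (-0.098) and Suclg1 (-0.45) in thalamus. It gave 1 call in CA1, 5 in CA3, 0 in DG, 2 in choroid plexus, 2 in hypothalamus, 3 in layer 6 cortex, 0 in the medium spiny neuron region, 3 in thalamus, 0 in upper cortex and 4 in white matter, on fewer UMIs and fewer genes. Of all genes in that fit, 7.97% to 24.7% were called in these 10 regions, and the share of the 29 members was below that of all genes in all of them but layer 6 cortex. Without the block of section the count was 5 in layer 6 cortex, 1 in medial habenula and 2 in upper cortex, and with the stricter lead it was 3 in meninges. The cause was not tested.

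When each section was left out in turn, the number of members called ran from 3 to 6 in CA1, 14 to 19 in CA3, 6 to 14 in DG, 3 to 6 in upper cortex, 5 to 8 in layer 6 cortex, 17 to 20 in thalamus, 4 to 6 in hypothalamus, 1 to 3 in the medium spiny neuron region, 1 to 2 in medial habenula, 9 to 12 in white matter, 6 to 13 in choroid plexus and 0 to 3 in meninges. Between trained and untrained mice it ran from 0 to 1 over whole sections, in DG and in white matter, and in the interaction from 0 to 1 in DG and layer 6 cortex, each time 1 without trained 1. The fold change of Slc2a1 in DG ranged from -0.0094 without trained 2 to 1.17 without trained 1.

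The log2 glycolytic to TCA ratio against the whole section moved with the weighting. With every gene weighted the same it was 0.18 in layer 6 cortex, -0.16 in white matter and -0.0070 in meninges. The trained minus untrained value in CA1 was then 0.034, against -0.059 from the summed UMIs. With Gapdh and Mdh1, the most abundant of each list, left out, it was -0.053 in CA1, 0.13 in layer 6 cortex, 0.032 in thalamus and 0.026 in meninges, and with the stricter lead 0.17 in meninges. CA3 and DG stayed above 0 and choroid plexus below 0 under each of these. The cause was not tested.

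With the replicate number as a block, 0 members were called in every training comparison, as without it. Nothing in the sources says that the numbers pair the mice. The correlation of the deviations of trained 1 and untrained 1 was 0.019 over 13811 genes. With 2 sections a group it cannot tell whether the mice were paired. Depth limits the small regions most. The smallest sums were 39842 UMIs in medial habenula, 44332 in meninges, 50853 in choroid plexus and 65369 in CA3. With 2 mice a group, no result says that training left a gene without change.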
